A study of Mus musculus with 6 samples.

Results

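The transcriptome of EpCAM+ cells sorted from the liver of a DDB1F/F;Alb-Cre+/+ mouse was set against that of wild type hepatocytes on Illumina mouse bead arrays, with 1 array on each side. All genes whose probe was above background (detection p under 0.05) on at least 1 of the 2 arrays were described, which gave 10179 genes of the 12379 above background on at least 1 of the 6 arrays of the series. The EpCAM+ cells came from a 4-week-old mouse homozygous for the Alb-Cre transgene, in which the albumin promoter drives Cre recombinase in hepatocytes, on 2 floxed alleles of Ddb1. The cells were stained for EpCAM and against F4/80, a macrophage antigen, and sorted from the non-parenchymal fraction after lysis of red blood cells. The wild type hepatocytes were the cells that sedimented at low speed after collagenase perfusion. Both animals were of a mixed C57BL/6 x 129 strain. The other arrays held hepatocytes of a DDB1F/F;Alb-Cre+/+ mouse and EpCAM+ cells of a 6-week-old DDB1F/F;Alb-Cre+/- mouse, of a DDB1F/F;Mx1-Cre+/- mouse, in which an interferon-inducible promoter drives Cre, and of a mouse fed the bile duct injury diet DDC. The labels name the tissue as mammary, whereas the methods describe liver. They give neither the sex of any animal nor the age of the wild type mouse, so that sex, age, genotype and cell type cannot be told apart in this comparison.

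Hepatocytes carry out most of the metabolism of the liver and secrete most plasma proteins, while cholangiocytes line the bile ducts, are polarized, rest on a basement membrane and modify bile. Oval cells are small cells of ductal appearance that expand from the portal region when hepatocytes are damaged or cannot divide, and EpCAM, a surface glycoprotein of simple epithelia, is used to isolate them together with cholangiocytes. DDB1 is the adaptor of the CUL4 ubiquitin ligases, which degrade replication and cell cycle proteins. Here the oval cells were studied in livers whose hepatocytes had lost DDB1.

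A signal is the normalized brightness of a probe, and a fold is the ratio of the signals of 1 probe on the 2 arrays, given as EpCAM+ over wild type or the reverse as stated. Where a probe was above background on 1 array only, the fold was computed against the lowest signal above background on the dim array and is a lower bound ("at least"). There was no replicate on either side. No p-value can therefore be given, and each value describes these 2 arrays. The beads of a probe, 44 at the median on each array, gave a median standard error of 0.13 for a log2 fold, with a 95th percentile of 0.17, which covers the spread within an array and not that between mice.

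Of the 10179 genes, 9365 were above background in the EpCAM+ cells and 7364 in the wild type hepatocytes, with 6550 above background in both. A total of 1941 genes (19.1%) were over 2-fold higher in EpCAM+ cells, 826 of them as lower bounds, and 1759 genes (17.3%) were over 2-fold lower, 455 of them as lower bounds. Among the genes above background on both arrays the shares were 17.0% and 19.9%. Far from the threshold the lower side held more genes. Over 10-fold lay 205 higher and 293 lower genes, over 50-fold 19 and 61, and over 100-fold 5 and 21. These counts include lower bounds, and all 5 genes over 100-fold higher were bounds. Above background on 1 array only were 2815 genes in EpCAM+ cells and 814 in wild type hepatocytes. The lowest signals above background were 119 and 160 on these arrays. How far these limits shape the difference in counts was not tested. The log2 signals of the 2 arrays correlated across genes with r = 0.62, which is a description, since genes of 1 array pair share their libraries. The arrays also differed in yield, with 14942 and 11429 probes above background and a mean raw signal of 309 and 378 in EpCAM+ cells and wild type hepatocytes.

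**Figure D1:**
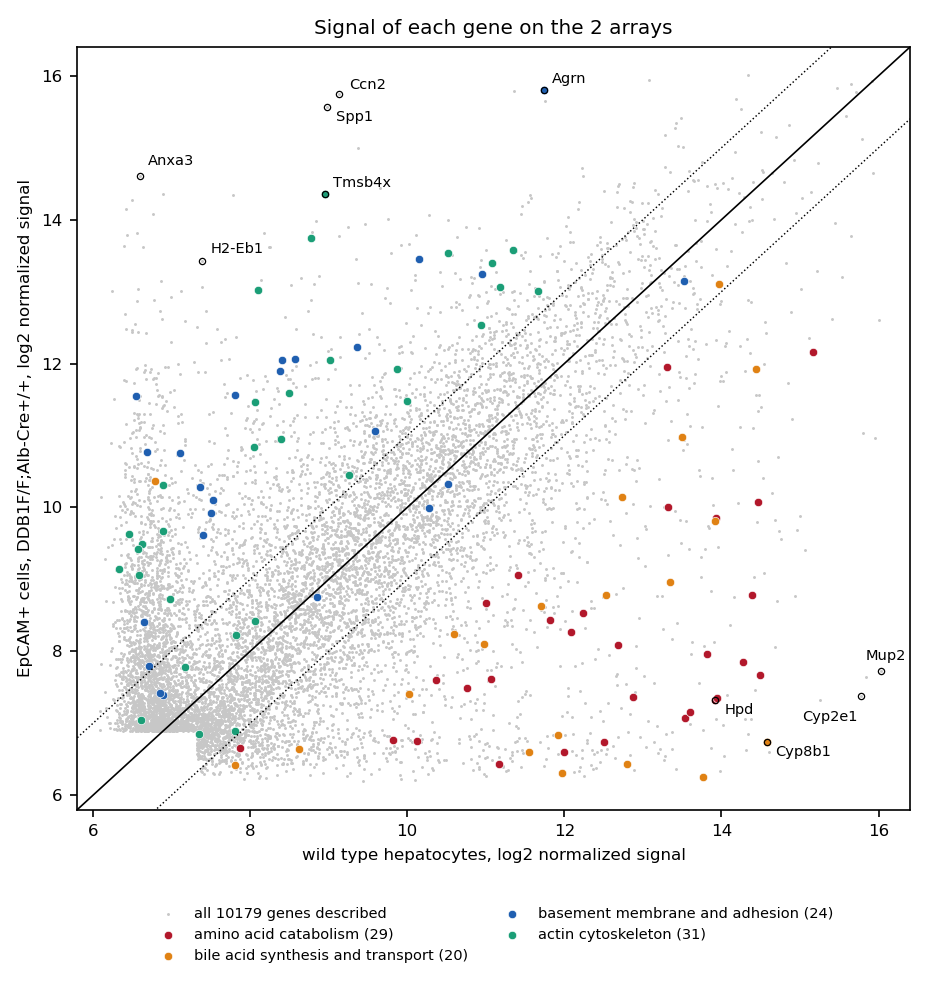
Log2 normalized signal of each of the 10179 genes in wild type hepatocytes (x axis) and in EpCAM+ cells of the DDB1F/F;Alb-Cre+/+ mouse (y axis), 1 array each. Solid line, equal signal; dotted lines, 2-fold; colours, members of 4 gene lists with the number described in parentheses. Enzymes of amino acid catabolism and bile acid genes lie mostly below the diagonal, with Cyp2e1 at 335-fold and Mup2 at 316-fold lower, and basement membrane and actin genes lie mostly above it.

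The largest folds on the higher side among genes above background on both arrays belonged to Ccn2 (connective tissue growth factor), at 54824 in EpCAM+ cells against 563 in wild type hepatocytes or 97.4-fold, to Spp1 (osteopontin), at 48460 against 504 or 96.2-fold, and to Scara3 (a scavenger receptor family member), at 20783 against 221 or 94.2-fold. The largest lower bounds were those of Anxa3 (annexin A3, at least 156-fold), Bicc1 (an RNA-binding protein mutated in polycystic kidney disease models, at least 132-fold), Tubb2b (a beta tubulin, at least 124-fold), Dmbt1 (a mucosal scavenger protein, at least 114-fold) and Ankrd1 (a YAP target, at least 108-fold). These 5 genes were not above background in wild type hepatocytes at the probe read, although another probe of Anxa3, Bicc1 and Tubb2b was. The probes of Anxa3 gave log2 folds from 6.91 to 7.29, those of Tubb2b from 0.83 to 6.95 and those of Bicc1 from -0.38 to 7.04. On the lower side, the ethanol-metabolizing cytochrome Cyp2e1 had a signal of 167 against 55925, a fold of 335, and the major urinary proteins Mup2 and Mup3 were 316-fold and 293-fold lower. Coagulation factor X (F10) was 243-fold lower, and Pon1, a lipoprotein-bound esterase, at least 252-fold.

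The genes that check the labels were read next. Ddb1 had a signal of 259 in the EpCAM+ cells and 499 in wild type hepatocytes, 1.93-fold lower. Its signal was 169 in mutant hepatocytes, 205 in the Alb-Cre+/- EpCAM+ cells, 276 in the Mx1-Cre cells and 317 in the DDC cells, so that the EpCAM+ arrays lay between the hepatocyte arrays. Whether its probe lies inside the deleted part was not examined here. The Epcam probe was dim on every array, at 125 and above background in the EpCAM+ cells and at 99.6 and not above background in wild type hepatocytes, which allowed no fold. The albumin probe (Alb) was also dim, at 794 in wild type hepatocytes and at 106, not above background, in EpCAM+ cells, at least 6.7-fold lower.

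Markers of 10 cell types were compared as lists. Of the 14 cholangiocyte markers described, 12 were over 2-fold higher in EpCAM+ cells and 1 was lower, with a median log2 fold of 4.18. They included Krt7 (6311 against 118, at least 39.4-fold), Krt19 (2903 against 77.3, at least 18.1-fold), the ductal transcription factor Sox9 (15748 against 705, 22.3-fold) and the chloride channel Cftr (1923 against 111, at least 12-fold). Of the 14 hepatocyte markers none was higher and 12 were lower, with a median of -4.38. The exceptions were Ttr (transthyretin), at 35519 against 56590, and Ahsg (fetuin-A), at 21376 against 36225, which lay within 2-fold. The summed signal of the hepatocyte markers was 76935 in EpCAM+ cells and 337215 in wild type hepatocytes, and that of the cholangiocyte markers 113672 and 2749. In a bulk sample fewer cells of a type and less RNA per cell cannot be told apart.

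Markers of other liver cells also differed, and their part in the results below was not tested. The sinusoidal endothelial list had 6 of 14 members higher and 1 lower, and its summed signal was 27115 against 4760. In mutant hepatocytes the sum was 19117, and against that array none of the 14 was over 2-fold higher or lower (median 0.11). Clec4g (16337 against 1474) and Gpr182 (4028 against 433), a lectin and an orphan receptor of these endothelial cells, were 11.1-fold and 9.31-fold higher, whereas Pecam1 (187 against 200), present on all endothelium, was not. The neutrophil list summed to 13074 against 1107, of which Lcn2, also made by epithelium, held 11179, and S100a8, Ngp and Mpo were not above background on either array. Of 9 macrophage markers 5 were higher and 4 lower, a balance that turned to 1 and 4 with scaling to reference genes. Clec4f and Vsig4, of resident Kupffer cells, were at least 6.47-fold and 2.75-fold lower. Of 14 dendritic cell markers, listed after the values were seen, 8 were described and 4 were higher, with a summed signal of 4517 against 832, among them Clec10a (2335 against 100, at least 14.6-fold) and Siglech (636 against 121, at least 3.97-fold). Stellate cell and fibroblast markers had 4 of 9 higher and 1 lower, or 1 and 4 with scaling to reference genes. Lrat, Pdgfrb and Col1a1 were not above background on either array. Of 4 lymphocyte markers 1 was higher, and Ptprc and Cd3e were not above background.

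**Figure D2:**
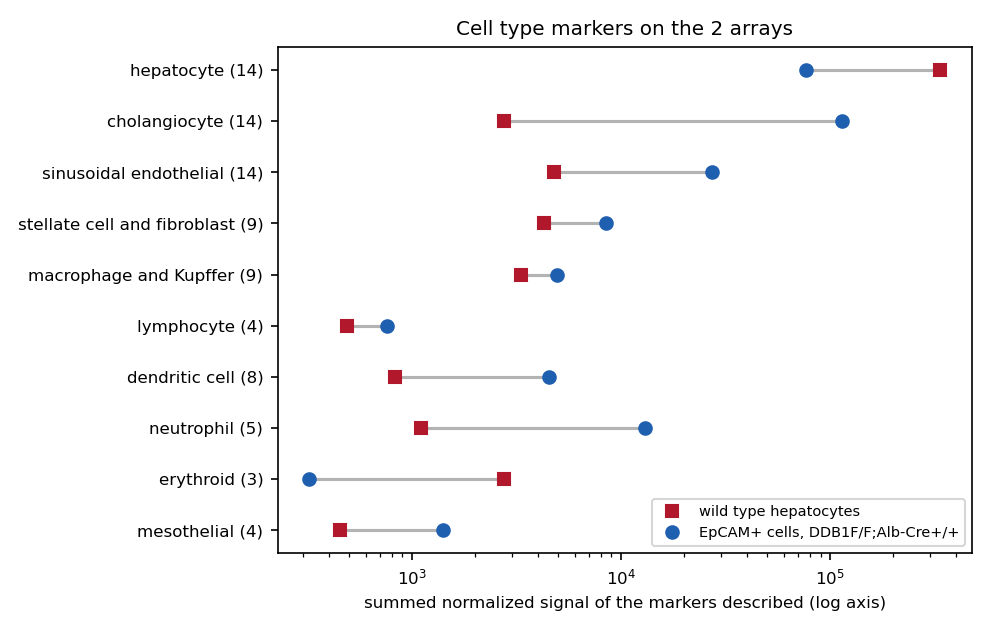
Summed normalized signal of the markers described of 10 cell types (log axis) in EpCAM+ cells (circles) and wild type hepatocytes (squares), 1 array each, with the number of markers in parentheses. The cholangiocyte sum is 113672 in EpCAM+ cells against 2749 in wild type hepatocytes, the hepatocyte sum 76935 against 337215 and the sinusoidal endothelial sum 27115 against 4760.

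Genes of the sex chromosomes, listed after the values were seen, separated the 2 arrays. Xist, the RNA that coats the inactive X chromosome, had a signal of 1907 in EpCAM+ cells and of 74.9, not above background, in wild type hepatocytes. The Y-linked Eif2s3y had a signal of 81.4, not above background, in EpCAM+ cells and of 1825 in wild type hepatocytes. Xist was high also in the Alb-Cre+/- EpCAM+ cells (2094) and Eif2s3y in the Mx1-Cre (1880) and DDC (2278) cells, whereas in mutant hepatocytes Xist was at 120, above background, and Eif2s3y at 90.7, not above it. Mouse liver is strongly sexually dimorphic. All 8 described genes of a list of male-biased liver genes were lower in EpCAM+ cells, with a median log2 fold of -5.38, among them the steroid dehydrogenase Hsd3b5 (99.5 against 9535, at least 80.5-fold lower) and the P450s Cyp2d9 (435 against 31368, 72.1-fold lower) and Cyp4a12a (80.7 against 4658, at least 39.3-fold lower). Of 6 described female-biased genes 4 were lower and none was higher, for example Cyp2b9 (110 against 1171, at least 9.88-fold lower). For genes that differ between the sexes, sex and cell type cannot be told apart in the comparison of these 2 arrays. On the Mx1-Cre and DDC EpCAM+ arrays, where Eif2s3y was above background as in wild type hepatocytes, all 8 male-biased genes were over 2-fold lower as well, with medians of -5.40 and -5.49, and so were all 6 described major urinary proteins, with medians of -6.33 and -6.68. In mutant hepatocytes, where Eif2s3y was not above background, 6 of the 8 male-biased genes were over 2-fold lower than in wild type hepatocytes. None was higher, and the median was -3.025. Of the 6 female-biased genes 4 were higher there and 1 was lower (median 1.34), and of the 6 major urinary proteins 3 were lower (median -0.92). All these comparisons share the wild type array, and the part of sex in them was not tested.

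Metabolic enzymes of the hepatocyte were lower in EpCAM+ cells with few exceptions. All 10 described genes of the urea cycle and ammonia metabolism were over 2-fold lower, with a median log2 fold of -2.43. Cps1, which starts the urea cycle, had a signal of 173 against 7625 (44.2-fold lower), Ass1 of 249 against 12524 (50.4-fold lower) and Arg1, which releases urea, of 414 against 26854 (64.9-fold lower). Glul, the glutamine synthetase of pericentral hepatocytes, was 5.47-fold lower. All 13 described genes of gluconeogenesis, glycogen and liver sugar handling were lower as well, with a median of -3.34. They included the gluconeogenic G6pc (757 against 27797, 36.7-fold), Pck1 (155 against 4897, 31.6-fold) and Fbp1 (828 against 8389, 10.1-fold), and the fructose kinase Khk (189 against 9046, 47.8-fold).

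Of 13 described genes of glycolysis 2 were higher (15.4%) and 3 lower (23.1%), near the shares of 19.1% and 17.3% over all genes, with a median of -0.57. Pkm, the pyruvate kinase of proliferating and non-hepatic cells, was at least 3.99-fold higher (639 against 109), while Pklr, the liver isoenzyme, was at least 2.05-fold lower (74.5 against 243). The glucose transporter Slc2a1 was 3.07-fold higher (1293 against 421) and the hepatocyte transporter Slc2a2 2.36-fold lower (1240 against 2928). Ldha, lactate dehydrogenase, was 5.63-fold lower (1062 against 5979).

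Amino acid catabolism had the lowest median of the lists of metabolic pathways. Of 29 described genes 28 were lower and none was higher, with a median log2 fold of -4.07, and the remaining gene, Cth, had a lower bound of 1.97-fold. The tyrosine pathway enzymes Hpd (161 against 15465) and Hgd (164 against 15691) were 96.2-fold and 95.8-fold lower, whereas Fah, the last enzyme of that pathway, kept a signal of 4584 against 36656, 8-fold lower. The glycine methyltransferase Gnmt (232 against 19831, 85.6-fold) and Mat1a (442 against 21443, 48.5-fold), which makes S-adenosylmethionine in the adult liver, were lower too. Prodh2, which degrades hydroxyproline, was 113-fold lower, and Uroc1 and Hal, of histidine breakdown, were 88.1-fold and at least 34.5-fold lower.

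For lipids, 13 of 15 genes of fatty acid oxidation were lower and none was higher (median -2.15), and 14 of 20 genes of cholesterol and fatty acid synthesis were lower and 1 was higher (median -1.28). The peroxisomal thiolase Acaa1b was 50.6-fold lower (679 against 34352), and Scd1, the stearoyl-CoA desaturase, 98.3-fold lower (267 against 26251). Acadl, a mitochondrial acyl-CoA dehydrogenase, did not differ by 2-fold, at 1253 against 1291. Srebf2, the transcription factor that controls cholesterol synthesis, was the higher gene, at 1608 against 664 or 2.42-fold.

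Of 20 genes of bile acid synthesis and transport 17 were lower, with a median of -2.97. Cyp7a1, the rate-limiting enzyme of bile acid synthesis, was at least 33.9-fold lower (79.2 against 4017). Cyp8b1, the sterol hydroxylase that makes cholic acid, was at least 207-fold lower (107 against 24548), Slc27a5, which activates bile acids for conjugation, at least 118-fold (75.9 against 13938), and Abcb11, the canalicular bile salt export pump, at least 25.2-fold (97.3 against 2992). Nr1h4, the bile acid receptor FXR, kept a signal of 1128 against 6784 (6.01-fold lower). The gene in the opposite direction was Abcc4, a basolateral efflux pump, at 1317 against 110 or at least 8.22-fold higher. Among the water channels, Aqp1 of bile duct and endothelium was 5.84-fold higher (2924 against 501), while Aqp9 and Aqp8 of hepatocytes were 26.0-fold and at least 23.7-fold lower.

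The promoter of Cyp8b1 is shown because this gene had the largest lower bound of the list and its window holds a recognition sequence of HNF4A, the nuclear receptor of hepatocyte genes. The sequence is that of RefSeq on GRCm38.p6, chr9:121916306-121916555, minus strand, 250 bases before the transcription start, with CAAAGTCCA in capitals at 67 bases before the start.
Cyp8b1: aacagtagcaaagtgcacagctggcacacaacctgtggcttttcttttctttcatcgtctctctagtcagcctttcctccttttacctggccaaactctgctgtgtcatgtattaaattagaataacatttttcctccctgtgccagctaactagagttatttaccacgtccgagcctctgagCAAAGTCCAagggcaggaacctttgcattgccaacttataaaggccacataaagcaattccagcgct
CAAAGTCCA, searched on both strands, was present in 0.451% of the windows of all 27025 genes of the table and in 6 of 239 genes with a window (2.51%) that were over 10-fold lower. It was present in 0.676% of the genes with a window that were over 10-fold higher. A match in a window is a description of its letters and no evidence of binding.

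Enzymes of drug metabolism were described by family. Of the 54 cytochromes P450 39 were lower and 2 were higher, with a median log2 fold of -4.02. The lower ones included Cyp2c37 (134 against 21164, 158-fold), Cyp2f2 (93.8 against 16739, at least 141-fold) and Cyp1a2 (107 against 9020, at least 76.1-fold). The probes of Cyp2c37 gave log2 folds from -7.31 to -0.85, and the Cyp2c genes are close paralogs whose probes may share targets. The higher ones were Cyp2s1, an extrahepatic epithelial P450, at 841 against 113 (at least 5.25-fold), and Cyp4f16, at 542 against 202 (2.69-fold). Of 10 UDP-glucuronosyltransferases 9 were lower, of 12 carboxylesterases 11, of 19 glutathione S-transferases 12 and of 14 aldehyde dehydrogenases 10, and none in these families was higher. Gsta2 lay at 344 and 342 on the 2 arrays, and Gstm1, a conjugating enzyme abundant in liver, at 2720 against 15899. All 6 described major urinary proteins, pheromone carriers with near-identical paralogs and male-biased expression, were lower, Mup6 by at least 172-fold and Mup20 by at least 37.7-fold.

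Genes of both zones of the liver lobule were lower. Of 15 described genes of pericentral hepatocytes 13 were lower with a median of -4.27, and of 18 genes of periportal hepatocytes 16 were lower with a median of -4.11. The periportal gene in the other direction was Cdh1 (E-cadherin), an epithelial adhesion protein, at 10413 against 1948 or 5.35-fold higher.

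**Figure D3:**
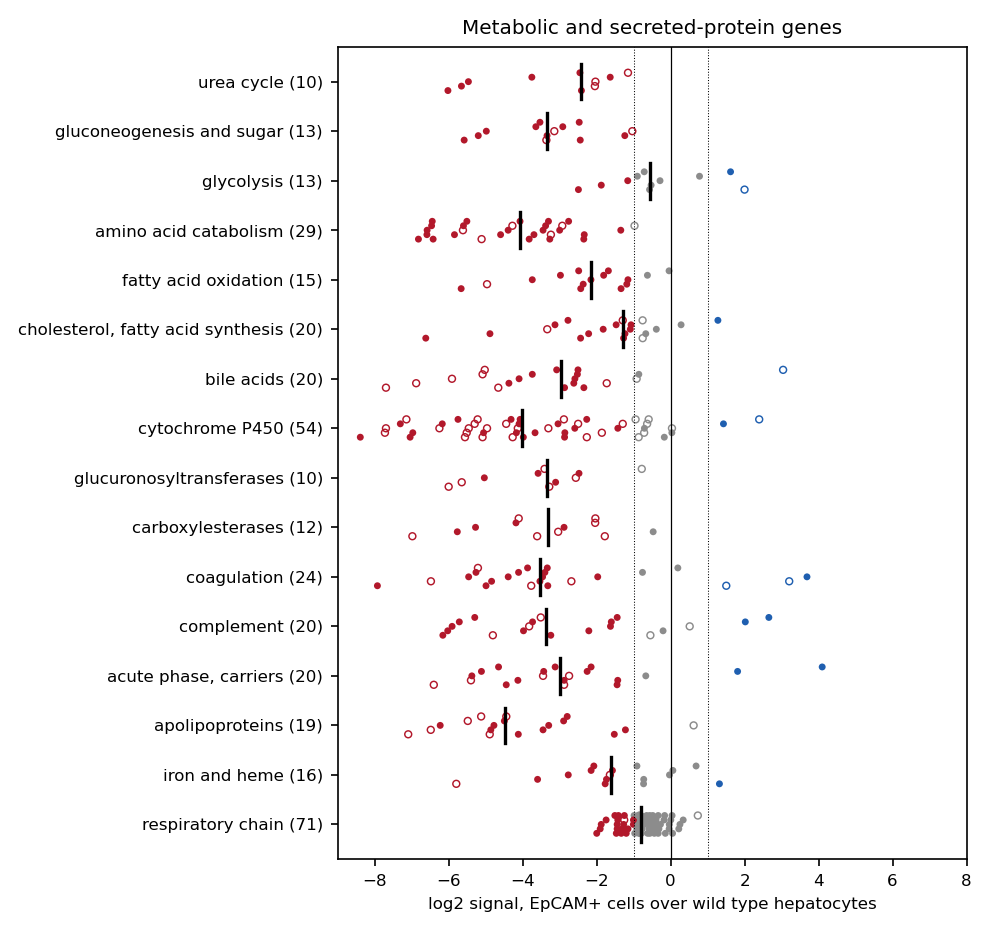
Log2 fold of each described gene, EpCAM+ cells over wild type hepatocytes, in lists of metabolic enzymes and secreted proteins, with the number of genes in parentheses. Filled symbols, above background on both arrays; open symbols, lower bounds; blue and red, over 2-fold higher and lower; black bars, medians; dotted lines, 2-fold. The median is -4.07 for amino acid catabolism, -4.02 for P450s and -2.43 for the urea cycle, against -0.79 for the respiratory chain and -0.57 for glycolysis.

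Secreted plasma proteins split unevenly. Of 24 coagulation and fibrinolysis genes 18 were lower and 3 were higher, with a median of -3.53. Fga (fibrinogen alpha chain) was 44.0-fold lower (543 against 23912), F2 (prothrombin) 28.6-fold lower (270 against 7733) and Plg (plasminogen) 21.0-fold lower (229 against 4795). The higher ones were Anxa5, a phospholipid-binding protein, at 14193 against 1104 (12.9-fold), Plat, tissue plasminogen activator, at 1476 against 108 (at least 9.22-fold), and Plaur, the urokinase receptor, at 454 against 96.9 (at least 2.83-fold). Of 20 complement genes 15 were lower and 2 were higher (median -3.37). Hc, complement component C5, was 52.4-fold lower, and Cfp, properdin, was 4.05-fold higher (3941 against 973), while the probes of Masp1 pointed in both directions, from -3.87 to 2.65. C2 (6118 against 7053) was within 2-fold.

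Acute phase proteins and carriers had 17 of 20 genes lower and 2 higher (median -3.00). Orm1 (orosomucoid) was at least 84.5-fold lower, Hp (haptoglobin) 25.1-fold and Trf (transferrin) 4.44-fold. Lcn2, an iron-scavenging lipocalin, was 17.1-fold higher (11179 against 654), and Cp, ceruloplasmin, 3.50-fold higher (11556 against 3297). Of 19 apolipoprotein genes 17 were lower, and none was higher. Apoa1 kept a signal of 2092 against 57308 (27.4-fold lower) and Apoe, which is also made outside hepatocytes, of 7386 against 21224 (2.87-fold lower), while Apoa2 (80.4 against 16176) was at least 136-fold lower. In iron and heme metabolism 9 of 16 were lower and 1 was higher. Hamp, the hormone hepcidin, was at least 55.5-fold lower (112 against 6573) and Tfrc, the transferrin receptor, 2.49-fold higher (1367 against 548), with the ferritin heavy chain Fth1 at 55925 against 53649. Among 26 serpins 18 were lower, led by Serpina3n (134 against 20187, 151-fold), and 3 were higher, led by the intracellular Serpinb6a (16240 against 457, 35.5-fold).

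Transcription factors of the hepatocyte were more often lower than higher. Of 21 described, 11 were lower and 4 higher, 2 of the higher ones as lower bounds, with a median of -1.10. The share lower was above the 17.3% over all genes, whereas the share higher was near the 19.1% over all genes. Hnf4a, a nuclear receptor central to hepatocyte identity, was 3.34-fold lower (3576 against 11951) and Foxa3 3.14-fold lower (3602 against 11322). The xenobiotic receptor Nr1i3 (CAR) was 29.3-fold lower (137 against 4019) and Creb3l3, a hepatocyte activator of lipid genes, 17.7-fold lower (223 against 3953). Prox1, a homeobox factor of liver progenitors and hepatocytes, was at 1794 against 1168, within 2-fold. The pioneer factor Foxa1 was at least 3.75-fold higher (601 against 138).

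Of 25 factors of biliary and epithelial cells 19 were higher and 1 lower, with a median of 1.93. Besides Sox9, they included Klf6 (5577 against 95.1, at least 34.8-fold), a zinc finger factor of the early response to injury, and Id1 (5035 against 199, 25.4-fold), an inhibitor of bHLH factors induced by BMP. Gata6 (3625 against 291, 12.5-fold), Sox4 (1853 against 80.8, at least 11.6-fold), Elf3 (2270 against 119, at least 14.2-fold) and Onecut2 (17236 against 2805, 6.14-fold), factors of endoderm and ducts, were higher too. Another probe of Elf3 was above background in wild type hepatocytes. The lower gene was Ehf, an ETS factor of epithelia, at 122 against 305 (2.50-fold).

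Keratins and junctions formed the epithelial part of the difference. Of 14 genes of desmosomes and keratin filaments 10 were higher and none was lower (median 2.42). The keratins of simple epithelium shared with hepatocytes, Krt8 (19350 against 2968, 6.52-fold) and Krt18 (9259 against 1632, 5.67-fold), were higher, and so was Krt23, a keratin of injured ducts (14617 against 441, 33.1-fold). Of 26 genes of tight and adherens junctions and polarity 16 were higher and 3 were lower (median 1.33). Cldn4 (4031 against 101) and Cldn6 (3932 against 94.0), claudins of tight junctions, were at least 25.2-fold and 24.6-fold higher. Cldn14 (127 against 339) was 2.67-fold lower and Cldn1 (99.7 against 274) at least 2.31-fold. The splicing regulators of epithelial cells differed in direction, with Esrp1 at least 22.2-fold higher (3549 against 110) and Esrp2 2.90-fold lower (582 against 1690).

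Of 24 basement membrane and adhesion genes 17 were higher and none was lower, with a median log2 fold of 2.50. The proteoglycan agrin (Agrn) had a signal of 57308 against 3421 (16.8-fold), perlecan (Hspg2) of 3030 against 224 (13.6-fold) and the collagen IV chain Col4a1 of 11172 against 1135 (9.84-fold). The laminin chains Lamb2, Lamc1 and Lama5 were 11.2-fold, 11.4-fold and at least 10.8-fold higher, and their receptors Itga3 (4219 against 338) and Itgb4 (2997 against 93.2) 12.5-fold and at least 18.7-fold. Itgb1, the common beta chain of many integrins, was at 431 against 463. Among tissue remodelling proteases and inhibitors 11 of 23 were higher and 1 was lower. Mmp14, a membrane metalloprotease that activates pro-MMP2, was at least 38.6-fold higher (6176 against 144), Timp2 at least 31.5-fold (5049 against 127) and Mmp7 at least 7.08-fold (1133 against 68.6), while Mmp2 itself was 2.84-fold lower (140 against 396). Spint1, the inhibitor of the protease St14, was at least 88.2-fold higher at the probe read (14119 against 86.7), and St14 at least 11.3-fold (1803 against 113). Log2 folds of the 2 Spint1 probes were 0.15 and 6.46.

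Actin cytoskeleton genes were among those most often higher, at 25 of 31 with none lower and a median of 2.13. Tmsb4x, which sequesters actin monomers, was 42.3-fold higher (20890 against 494), and Tpm4 (13771 against 437) and Tagln2 (8306 against 275), which bind actin filaments, 31.5-fold and 30.2-fold. Actb was 4.70-fold higher at the probe read (12254 against 2605), although its 5 probes spread from -0.71 to 2.23 on the log2 scale. Of 9 annexins 5 were higher and none was lower, with Anxa2 at 22159 against 802 (27.6-fold). Of 12 tubulins 5 were higher and 2 lower, and Tuba1a was 21.4-fold higher (4223 against 197).

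Many genes of bile modification and cilia and of mucosal defence were also higher, the former mostly as lower bounds. Of 25 genes of secretion, cilia and polycystic disease 15 were higher, 12 of them as lower bounds, and 2 were lower (median 1.49). Among the 8 above background on both arrays 3 were higher and 1 was lower (median 0.20). Pkhd1 (fibrocystin, mutated in recessive polycystic disease) was at least 7.92-fold higher (1268 against 126), the calcium-activated chloride channel Ano1 at least 9.71-fold (1555 against 95.5) and the secretin receptor Sctr at least 3.31-fold (529 against 124). The intraflagellar transport genes were not uniform, with Kif3a at least 5.50-fold higher and Ift88 at 221 against 307. Of 18 mucosal defence genes 14 were higher and 1 was lower (median 2.45). Sftpd (surfactant protein D, 12741 against 84.4), Tff2 (a trefoil peptide, 8412 against 95.5) and Slpi (a protease inhibitor of secretions, 3974 against 120) were at least 79.6-fold, 52.5-fold and 24.8-fold higher, and Wfdc2 was 19.2-fold higher (16497 against 861). Dmbt1, at 18189 in these cells, was at 1594 in the Alb-Cre+/- cells, 122 in the Mx1-Cre cells and 1614 in the DDC cells, whereas Sftpd was at 16176, 19598 and 24653 there.

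**Figure D4:**
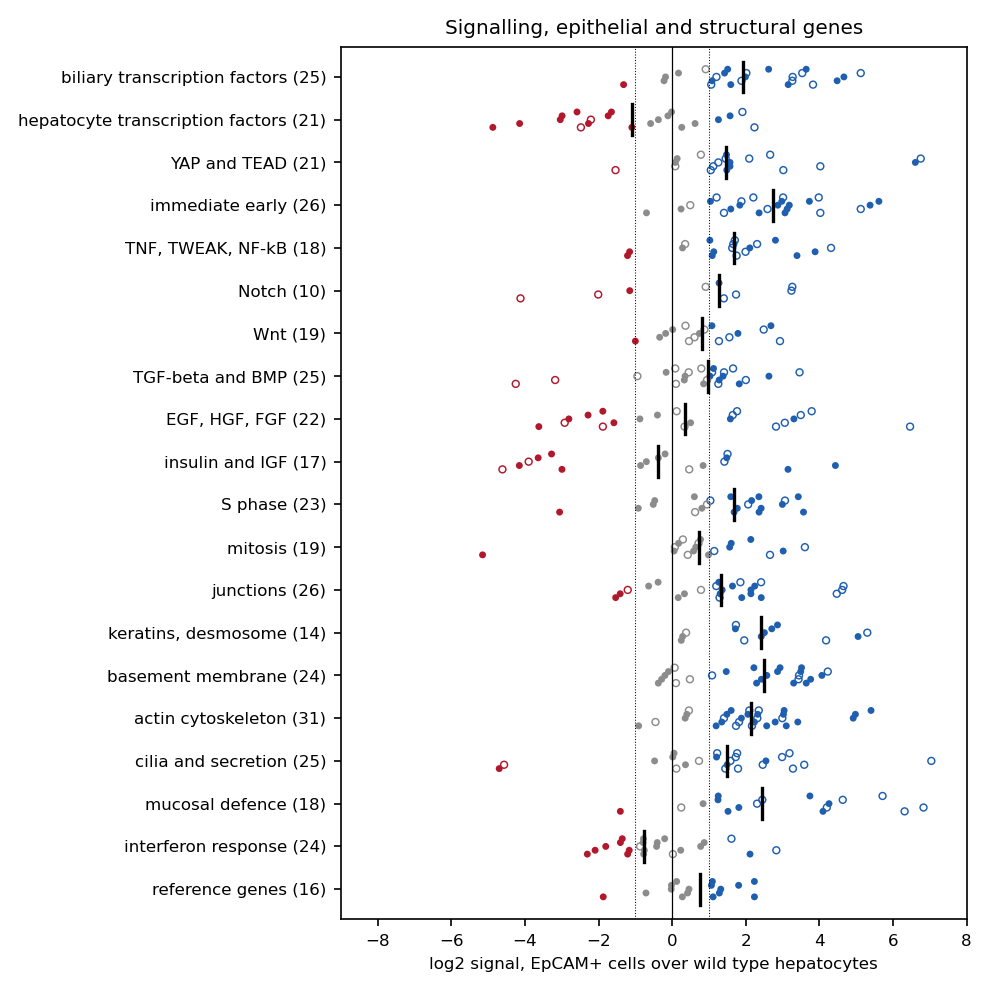
Log2 fold of each described gene, EpCAM+ cells over wild type hepatocytes, in lists of transcription factors, signalling, cell cycle and epithelial structure, with the number of genes in parentheses. Filled symbols, above background on both arrays; open symbols, lower bounds; blue and red, over 2-fold higher and lower; black bars, medians; dotted lines, 2-fold. The median is 2.73 for immediate early genes, 2.50 for basement membrane genes and 2.13 for actin genes, against 0.76 for widely expressed reference genes.

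YAP and TAZ are coactivators that act through the TEAD factors when the Hippo kinases are inactive. Of 21 described genes of this pathway 14 were higher and 1 was lower, with a median of 1.47. The targets carried the largest values. In addition to Ccn2, Ankrd1 had a signal of 17264 against 109 and Ccn1 of 2605 against 122, at least 108-fold and 16.3-fold higher. Among the regulators, Wwtr1, which encodes TAZ, was 2.97-fold higher (6672 against 2248) and Tead2 at least 8.10-fold (1297 against 128). Yap1 lay at 1572 against 1481, and Tead3 was at least 2.91-fold lower (91.0 against 345). The targets Axl and Igfbp3 were 2.78-fold and 2.79-fold higher. The promoters of Ankrd1 and Ccn1 are shown because both targets were far apart on the 2 arrays and their windows hold the TEAD recognition sequence GGAATG. The windows are the 250 bases before the transcription start in RefSeq on GRCm38.p6, chr19:36119845-36120094 for Ankrd1 and chr3:145649986-145650235 for Ccn1, both on the minus strand. GGAATG, or CATTCC on the other strand, is in capitals, at 210 and 123 bases before the start of Ankrd1 and at 103 bases before that of Ccn1.
Ankrd1: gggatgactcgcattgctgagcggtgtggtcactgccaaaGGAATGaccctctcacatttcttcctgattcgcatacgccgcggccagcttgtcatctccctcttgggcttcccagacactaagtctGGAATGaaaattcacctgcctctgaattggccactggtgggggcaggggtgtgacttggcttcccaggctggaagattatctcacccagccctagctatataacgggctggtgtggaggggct
Ccn1: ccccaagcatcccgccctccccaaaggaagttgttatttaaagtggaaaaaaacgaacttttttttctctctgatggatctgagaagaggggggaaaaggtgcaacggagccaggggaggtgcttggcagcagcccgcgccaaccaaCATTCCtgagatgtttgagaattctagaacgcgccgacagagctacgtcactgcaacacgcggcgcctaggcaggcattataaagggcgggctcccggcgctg
GGAATG, searched on both strands, was present in 14.4% of the windows of all 27025 genes of the table and in 13.1% of those of the 8261 described genes with a window. Its share was 21.6% of the 148 such genes over 10-fold higher and 15.5% of the 239 over 10-fold lower. Of 10 higher genes of the pathway list with a window 5 held it, namely Wwtr1, Ccn1, Ankrd1, Axl and Ptpn14.

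Immediate early genes, which are transcribed within minutes of a stimulus, tissue digestion included, were higher in 21 of 26 cases and lower in none, with a median of 2.73. Ier3 was 49.0-fold higher (32646 against 666) and Atf3, a stress-induced repressor, 41.5-fold higher (12624 against 304). The AP-1 members Fos (12818 against 968), Jun (4615 against 509) and Fosb (2528 against 94.4) were 13.2-fold, 9.07-fold and at least 15.8-fold higher. Egr1 was 7.31-fold higher, with a signal of 8647 in wild type hepatocytes and of 63216 in EpCAM+ cells. Nr4a2 lay at 138 against 223 and Gadd45g at 17618 against 14918. The EpCAM+ cells passed through staining and sorting and the hepatocytes did not, so that preparation and cell type cannot be told apart here. In mutant hepatocytes 12 of the 26 genes were over 2-fold higher than in wild type hepatocytes and none was lower (median 1.31). Against mutant hepatocytes, 17 were higher in EpCAM+ cells and none was lower. The causes were not tested. The AP-1 sequence TGACTCA was found in none of the 19 higher genes with a window, against 5.16% of all windows.

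Receptors of the TNF family and feedback genes of NF-kB were higher in 14 of 18 cases and lower in 2, with a median of 1.68. Tnfrsf12a, the receptor of TWEAK, a cytokine that makes oval cells divide, was 14.7-fold higher (3075 against 209). Tnfrsf19 was at least 19.9-fold higher (3187 against 131) and Nfkbiz, a nuclear inhibitor of NF-kB, 10.5-fold (4010 against 383). The death receptor Fas was 2.23-fold lower (156 against 348). Chemokines and cytokines were 9 of 20 higher and 3 lower, but 2 and 3 among those above background on both arrays. Cxcl16, a membrane-bound chemokine, was at least 51.6-fold higher (8256 against 139), Cxcl1, a neutrophil attractant, 25.2-fold (15273 against 605) and Il1rn, the interleukin 1 receptor antagonist, at least 23.2-fold (3711 against 137). Cxcl9 and Ccl9 were 6.70-fold and 7.41-fold lower.

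Ligands, receptors and targets of developmental pathways were mixed. In the Notch pathway 5 of 10 genes were higher and 3 lower, or 2 and 3 with scaling to reference genes. The ligand Jag1 (1512 against 88.3) and the target Hes1 (1537 against 158) were at least 9.44-fold and 9.60-fold higher, while the receptor Notch1 was 2.23-fold lower (221 against 492). In the Wnt pathway 7 of 19 were higher and 1 was lower. Wnt10a and Wnt7b were at least 7.61-fold and 5.60-fold higher, the receptor Fzd5 6.41-fold higher (2484 against 387), and the feedback target Axin2 lay at 461 against 277. In the TGF-beta and BMP pathway 12 of 25 were higher and 2 were lower, or 4 and 3 with scaling to reference genes, with the mediator Smad3 6.18-fold higher (4515 against 731) and the hepatocyte activin chains Inhbe and Inhbc at least 19.1-fold and 9.07-fold lower.

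Growth factor genes lay on both sides. Of 22 genes of EGF, HGF and FGF signalling 9 were higher and 7 lower, or 7 and 9 with scaling to reference genes. Among those above background on both arrays 2 were higher and 5 lower. The ligands Hbegf (2213 against 97.1) and Btc (1334 against 89.3) were at least 13.8-fold and 8.33-fold higher and their receptor Egfr 7.01-fold lower (1352 against 9470). Fgfr2, with an epithelial splice form for FGF7, was 9.89-fold higher (8468 against 856), and Klb, the coreceptor of FGF21 in hepatocytes, 4.88-fold lower (211 against 1029). In the insulin and IGF axis 5 of 17 were higher and 6 lower. Igfbp7, a secreted binding protein, was 21.6-fold higher (56590 against 2618), whereas the hormone Igf1 (1391 against 13512) and the growth hormone receptor Ghr (629 against 7860) were 9.71-fold and 12.5-fold lower.

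Cell cycle genes were read by phase. In S phase 13 of 23 were higher and 1 was lower (median 1.68), and in mitosis 7 of 19 were higher and 1 was lower (median 0.74). The helicase subunits Mcm4 (8831 against 745, 11.8-fold) and Mcm5 (3306 against 415, 7.96-fold) and the hemimethyl-DNA reader Uhrf1 (2200 against 205, 10.7-fold) were higher. Mcm10, a replication initiation factor, was 8.35-fold lower (1042 against 8696). Of the mitotic genes, the checkpoint kinase Bub1b was at least 12.2-fold higher (1947 against 144) and Prc1 8.08-fold (2472 against 306), but the kinases Cdk1 (272 against 182), Plk1 (275 against 177) and Aurkb (168 against 117) were within 2-fold or had a bound under 2-fold. The lower gene, Kif23, had probes in both directions, from -5.15 to 1.90. In G1, Ccnd1 (cyclin D1) was 6.56-fold higher (20105 against 3063) and Cdk4 6.89-fold (2358 against 342). Mutant hepatocytes had 12 of the 23 S phase genes over 2-fold higher than wild type hepatocytes and 1 lower (median 1.12). Of the 19 mitosis genes they had 9 higher and 1 lower (median 1.03).

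Of 18 p53 targets 7 were higher and 2 lower. Plk2 (2517 against 179), Cdkn1a (the inhibitor p21, 4567 against 975) and Mdm2 (8621 against 2136) were 14.1-fold, 4.68-fold and 4.04-fold higher. Mutant hepatocytes had signals of 741, 4976 and 8367 for these genes. Of 23 genes of the DDB1-CUL4 ligase and its substrates 4 were higher and 3 lower, both below the shares over all genes (19.1% and 17.3%), or 2 and 10 with scaling to reference genes. Cul4a, the scaffold, was 3.35-fold lower (633 against 2117) and Crbn, a substrate receptor, 2.65-fold lower (390 against 1033). Cdt1, a licensing factor that this ligase degrades, was 4.46-fold higher in RNA (1913 against 429).

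MHC class II genes were among the highest in the EpCAM+ cells of this mouse. H2-Eb1 had a signal of 11043 against 168 (65.8-fold), H2-Ab1 of 12285 against 204 (60.1-fold), H2-Aa of 8234 against 75.6 (at least 51.4-fold) and the invariant chain Cd74 of 6806 against 174 (39.1-fold). The 3 probes of H2-Ab1 spread from 1.61 to 5.91 on the log2 scale and the 3 of Cd74 from 1.16 to 5.38. H2-DMa, which helps to load peptides on class II, was at least 13.5-fold higher (2166 against 95.8). On the Alb-Cre+/-, Mx1-Cre and DDC arrays H2-Eb1 was at 1376, 1952 and 1029, and on the mutant hepatocyte array at 1712. Each of these class II genes had its highest signal of the 6 arrays on the EpCAM+ Alb-Cre+/+ array. Of class I, B2m was 2.43-fold higher (17720 against 7297) and H2-D1 lay at 2108 against 1658. Ciita, the class II transactivator, was at 176 against 93.0, the latter not above background. Class II is made by professional antigen-presenting cells, and the dendritic cell markers Clec10a and Siglech were also highest on this array, at 738 and 520 in the Alb-Cre+/- cells, 248 and 235 in the Mx1-Cre cells and 124 and 139 in the DDC cells, but Itgax, Flt3 and Xcr1 were not above background on either array of the comparison. The part of such cells in the class II signal was not tested. Cd14, the lipopolysaccharide coreceptor, was 51.2-fold higher (8545 against 167) and reached 11499 in the DDC cells.

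The promoters of H2-Eb1 and H2-Aa are shown because class II genes share a conserved promoter module, of which the Y box CTGATTGG, chosen after the values were seen, is in capitals. The windows are chr17:34305617-34305866, plus strand, and chr17:34287824-34288073, minus strand, in RefSeq on GRCm38.p6, and the box begins 62 and 51 bases before the start.
H2-Eb1: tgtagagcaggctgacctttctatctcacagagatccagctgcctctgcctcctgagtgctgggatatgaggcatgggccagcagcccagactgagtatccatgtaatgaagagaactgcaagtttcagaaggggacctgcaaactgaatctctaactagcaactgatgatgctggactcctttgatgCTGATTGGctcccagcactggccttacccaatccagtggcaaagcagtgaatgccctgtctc
H2-Aa: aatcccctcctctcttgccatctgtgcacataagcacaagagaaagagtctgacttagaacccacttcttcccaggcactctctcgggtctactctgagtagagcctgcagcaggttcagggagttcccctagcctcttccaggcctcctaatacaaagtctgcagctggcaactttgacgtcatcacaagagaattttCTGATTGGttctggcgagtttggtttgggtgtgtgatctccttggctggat
CTGATTGG, searched on both strands, was present in 4.43% of all windows and in 2 of 7 higher genes of the MHC list with a window, namely these.

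**Figure D5:**
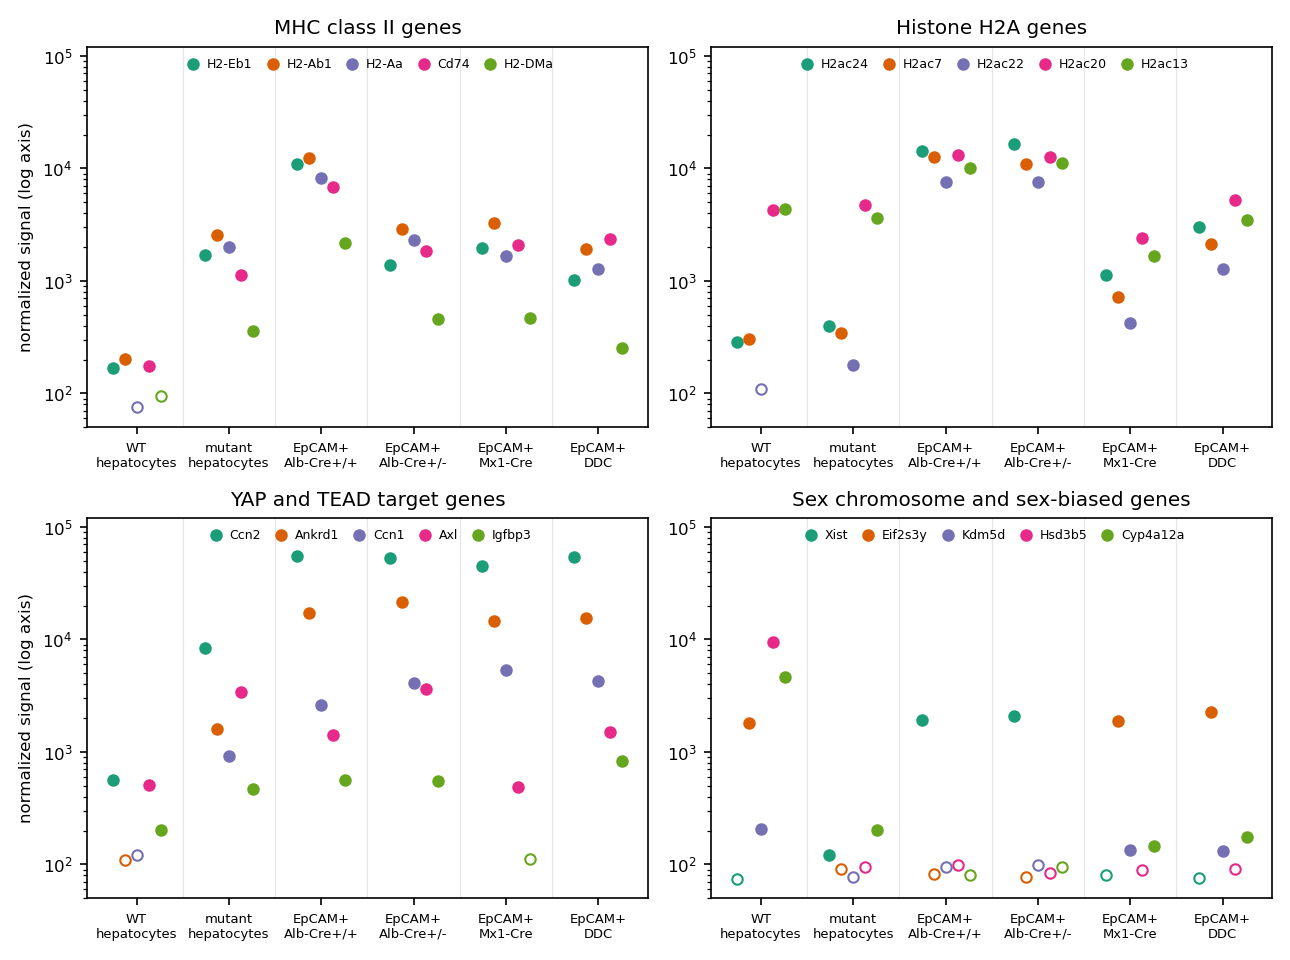
Normalized signal (log axis) of selected MHC class II, histone H2A, YAP and TEAD target and sex-related genes on each of the 6 arrays, 1 array per condition. Filled symbols, above background; open symbols, not above background. H2-Eb1 is at 11043 on the EpCAM+ Alb-Cre+/+ array and between 1029 and 1952 on the other EpCAM+ arrays and the mutant hepatocyte array, while Ccn2 is between 45288 and 54824 on all 4 EpCAM+ arrays.

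Interferon, NRF2 and endoplasmic reticulum genes were counted as lists, beside shares of 19.1% higher and 17.3% lower over all genes. Of 24 interferon response genes 3 were higher and 7 lower (median -0.76), with Ifitm3, an antiviral membrane protein, at 3713 against 12990 (3.50-fold lower) and the transcription factor Irf1 at 3317 against 766 (4.33-fold higher). Of 20 NRF2 targets 2 were higher and 7 lower, and the glutamate-cysteine ligase Gclc was at 164 against 169. Of 23 genes of endoplasmic reticulum folding 3 were higher and 6 lower, with the chaperones Hspa5 (559 against 554) and Hsp90b1 (7707 against 7147) almost equal on the 2 arrays.

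Genes of wide expression were read for comparison, and the values given above are not scaled to them. Of 16 reference genes 8 were higher and 1 was lower, with a median log2 fold of 0.76, Hprt at 1827 against 1855 and Rplp0 at 1118 against 238. Of 71 genes of the respiratory chain and ATP synthase none was higher and 19 were lower, with a median of -0.79 and Cox4i1 at 13089 against 13049. Ribosomal protein genes were 10 of 48 higher (20.8%) and 2 lower (4.17%), against 19.1% and 17.3% over all genes. Their balance turned to 1 and 4 with median scaling and to 0 and 9 with scaling to reference genes.

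The values of the other EpCAM+ arrays were read over the same wild type array, so that these comparisons share their control and are given side by side. Of the 10179 genes, 1838 (18.1%), 1846 (18.1%) and 1874 (18.4%) were over 2-fold higher and 1595 (15.7%), 1548 (15.2%) and 1704 (16.7%) lower on the Alb-Cre+/-, Mx1-Cre and DDC arrays, and 912 (8.96%) and 876 (8.61%) were higher and lower in mutant hepatocytes. The YAP target Ankrd1 was at 21506, 14447 and 15359 there and the keratin Krt23 at 10978, 13556 and 11683, against 17264 and 14617 in the homozygous cells. Mmp14, at 6176 in the homozygous cells, was at 3146, 456 and 1156. Klf6, at 5577, was at 2115, 491 and 2432, and Igfbp5, an IGF-binding protein, at 2351 against 550, 218 and 170. The hepatocyte hormone gene Hamp, not above background in the homozygous cells, was at 3594 in the Alb-Cre+/- cells and at 762 in the Mx1-Cre cells, and Mup2 was at 27367 and 544. Hepatocytes of the homozygous mutant lay between the 2 arrays for the ductal genes Krt7 (735) and Spp1 (12212) and for Ccn2 (8340). Of 17 further genes known from oval cells and fetal liver 11 were higher in the EpCAM+ cells and none was lower, with a median of 1.90. Among them were S100a6 (2722 against 119, at least 17.0-fold) and Bex4 (9307 against 400, 23.2-fold). Mutant hepatocytes were much alike, with 10 of the 17 higher than in wild type hepatocytes, none lower and a median of 1.53. The summed signal was 98589 in mutant hepatocytes and 90681 in EpCAM+ cells. Against mutant hepatocytes, 4 of the 17 were higher in EpCAM+ cells and 2 were lower. Igf2, the fetal growth factor, was at 428 against 99.9, at least 2.67-fold higher, and at 36225 in mutant hepatocytes. Afp, the fetal liver protein, was at 1635 in the EpCAM+ cells against 94.0 in wild type hepatocytes, at least 10.2-fold higher.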

How the data were processed

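RNA of 6 samples, 1 per condition, had been hybridised by the authors to Illumina MouseWG-6 v2 arrays on 1 BeadChip, so that array position and condition cannot be told apart. The deposited non-normalized intensity of each probe, its detection p-value, the bead count and the bead standard error, all made by the authors in GenomeStudio, were used. The authors' quantile normalized intensity values served as an alternative. The study kept probes with a detection p under 0.05, normalized by quantiles and read folds over 2. The same was done here with limma 3.58.1 in R 4.3.3 and Python 3.11.15: 21827 of 45281 probes above background on at least 1 of the 6 arrays were normalized over all 6. Of all probes 34885 had 1 gene symbol in the platform annotation, 18 several and 10378 none, and 2 (Spp1 and Ly6a) were named from the study's probe list. A gene was read at the probe the study listed, except Ncam1 and Thy1, whose listed probes are annotated to another gene, and otherwise at its brightest probe. For 164 genes given as lower bounds, another probe was above background on the dim array. A bound was taken against the lowest signal above background, 119 in EpCAM+ cells and 160 in wild type hepatocytes.

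With 1 array a side no test was made, and depth is known only as beads per probe. Genes named were drawn from the 15 furthest on each side above background on both arrays and the 10 largest bounds on each side. Further sources were the outermost and the innermost members of each list, key members marked by function, and Ddb1, Epcam and Alb. Not every gene that met these rules is named. Others, such as those of the other arrays' comparisons, were chosen after their values were seen. Members and lists were chosen with earlier results of these data known. The lists of dendritic cell, sex chromosome, sex-biased and histone genes and the Y box were added after the values were seen. Of 1134 genes on the lists 829 were described and 92 were not in the annotation of the array. Promoters are the RefSeq windows of GRCm38.p6, matched by symbol for 8261 described genes. Scripts were tested on simulated data.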

Additional observations from a re-analysis of the deposited data

Results flagged for a closer look

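Besides the named genes, 2287 probes with no gene name in the annotation used here were above background on at least 1 of the 2 arrays. Of these 326 were over 2-fold higher in the EpCAM+ cells of the DDB1F/F;Alb-Cre+/+ mouse and 290 were over 2-fold lower, a signal outside the genes described above. They were not examined further.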

How the results depend on the processing

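No paired analysis was possible because each condition had 1 array, and for the same reason no replicate could be left out. Counts of genes over 2-fold higher and lower ranged from 1527 to 2439 and from 1389 to 2127 with median scaling, quantiles over the 2 arrays, the authors' values, normexp background, a detection p under 0.01, no detection filter, the mean of all probes, the brightest probe for every gene, or mutant hepatocytes as the control. With only genes above background on both arrays 1115 were higher, which counts fewer genes by construction. Over 4-fold, 722 were higher and 697 lower. With scaling to reference genes, chosen after the data were seen, the median of all genes moved to -0.86, 916 genes were higher and 3809 lower, and 19.4% of the genes past the threshold were higher in place of 52.5%. The log2 fold of Masp1 turned to -0.51 with the mean of all probes. With mutant hepatocytes as the control, log2 folds turned for Afp (-2.73), Aqp1 (-1.11), Axl (-1.25), Cdkn1a (-0.12), Igf2 (-6.40), Lcn2 (-0.12), Mcm10 (0.17), Pkm (-0.29), Slc2a2 (0.76) and Slpi (-0.28), and the balance of higher to lower genes turned to 2 and 0 for the interferon response, 2 and 4 for mitosis, 1 and 4 for p53 targets, 0 and 9 for macrophage markers, 1 and 8 for stellate cell markers and 1 and 4 for the DDB1-CUL4 ligase. Counts of higher and lower genes went to 0 and 0 for sinusoidal endothelial markers, 5 and 1 for S phase, 16 and 0 for the actin cytoskeleton and 8 and 4 for mucosal defence with that control, and to 7 and 2 for TNF receptors and NF-kB feedback, 6 and 1 for YAP and TEAD, 4 and 2 for the Wnt pathway, 9 and 3 for cilia and secretion, 4 and 1 for mitosis, 4 and 2 for p53 targets and 10 and 5 for junctions with scaling to reference genes. The causes were not tested. Genes within 2-fold at signals near background are limited by the floor of each array.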

Other observations

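Clustered histone genes, listed after their values were seen, held some of the largest folds. Of 37 described 11 were higher and 5 lower, with a median log2 fold of 0.08, or 3 and 13 with scaling to reference genes. H2ac24 had a signal of 14374 in EpCAM+ cells and of 288 in wild type hepatocytes (49.8-fold higher), H2ac7 of 12559 against 303 (41.4-fold higher) and H2ac22 of 7544 against 109 (at least 47.1-fold higher). In the Alb-Cre+/- cells the signals of these genes were 16403, 10963 and 7552, and in the Mx1-Cre cells 1118, 714 and 424. The core histones H2ac18 (637 against 4673) and H2bc4 (503 against 1922) were 7.33-fold and 3.82-fold lower. Their coding sequences are near-identical, so that probes may share targets, and the probes of H2ac7 ranged from 0.59 to 5.37.

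Membrane and trafficking families were set beside shares of 19.1% higher and 17.3% lower over all genes. Solute carriers had 28 of 200 described genes higher (14.0%) and 71 lower (35.5%), with a median of -0.59. ABC transporters had 5 of 33 higher (15.2%) and 13 lower (39.4%). Slc25a47, a mitochondrial carrier of hepatocytes, was at least 175-fold lower (115 against 20713). Tetraspanins had 8 of 18 higher and 4 lower, led by Tspan8 (7791 against 127, at least 48.6-fold) of ductal epithelium. S100 proteins had 4 of 10 higher and none lower, integrins 6 of 16 and none (3 and none with scaling to reference genes), and collagens 7 of 13 and none (5 and 4 with that scaling). Rab GTPases had 9 of 38 higher (23.7%) and 2 lower (5.26%), or 5 and 6 with scaling to reference genes. Semaphorins and plexins, guidance ligands and receptors, had 4 of 15 higher (26.7%) and 2 lower (13.3%), or 4 and 5 with that scaling. Sema3f was at 9084 against 116 (at least 56.7-fold higher).

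Further families were counted in the same way. KLF factors had 5 of 12 higher and 3 lower, but 1 and 3 among those above background on both arrays. FOX factors had 2 of 18 higher (11.1%) and 3 lower (16.7%). Of 9 described HOX genes none was over 2-fold in either direction. Proteasome subunits had 4 of 32 higher (12.5%) and 4 lower (12.5%), and initiation factors 6 of 41 higher (14.6%) and 8 lower (19.5%). Over all genes the shares were 19.1% and 17.3%, so that the FOX, proteasome and initiation factor counts were near or below them. Mesothelial markers had 2 of 4 higher, with a summed signal of 1413 against 454, and erythroid markers summed to 323 against 2767, of which the erythroid enzyme Alas2 was at least 20.4-fold lower (99.6 against 2416). Ckb, brain-type creatine kinase, was at least 90.2-fold higher (14447 against 94.0), and Ddit4l, a stress-regulated inhibitor of mTOR, at least 78.3-fold (12545 against 99.3).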
